A study of Mus musculus with 6 samples.

Results

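Soat1, Soat2, Npc1 and Npc2 are the mouse genes for cholesterol esterification and for the export of cholesterol from the lysosome. They were taken by gene symbol from a table of messenger RNA levels in sorted mouse microglia (the macrophages that reside in brain tissue), and make up 4 of its 4656 rows. The samples are 3 libraries from Nus1 conditional knockout mice (Nus1cKO, here cKO) and 3 libraries from Nus1fl/fl mice (Ctrl), whose Nus1 alleles carry recombination sites but are intact. Nus1 encodes a subunit of cis-prenyltransferase, which builds the lipid chain of dolichol, the carrier for protein N-glycosylation. Per the labels, mice of both groups were injected intraperitoneally with tamoxifen, the drug that activates inducible Cre enzymes, at 100 mg/kg on each of 5 days starting at postnatal day 28. Brains were collected 30 days after the last dose and the microglia were sorted by flow cytometry. A culture medium is described as well, and it is left unsaid if the cells had been in culture before sequencing. The sources used here give neither the Cre driver nor the sex of the mice, nor do they state if Ctrl mice carried a Cre, so effects of Cre and of Nus1 loss cannot be told apart.

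Cholesterol that enters a macrophage with lipoproteins or engulfed cell debris is released in the lysosome. There the soluble protein NPC2 binds it and passes it to NPC1, a membrane protein of the lysosomal rim that moves it out of the organelle. In the endoplasmic reticulum, the sterol O-acyltransferases SOAT1 and SOAT2 join surplus cholesterol to a fatty acid, and the esters are stored in lipid droplets. SOAT1 is the main such enzyme of macrophages, while SOAT2 is known chiefly from the intestine and the liver. Loss of NPC1 or NPC2 causes Niemann-Pick disease type C, in which cholesterol collects in lysosomes of many cell types, neurons and microglia among them. The NUS1 protein is also called the Nogo-B receptor, and has been described in cultured cells as a binding partner that stabilises the NPC2 protein. The measurements here are of transcripts, not of proteins or of cholesterol.

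The targeted gene was checked first. Nus1 (chromosome 10:52293643-52316288, mm39) stood at 14.12, 13.62 and 13.82 TPM (a length-scaled transcript level) in the cKO libraries, against 59.43, 60.87 and 59.21 TPM in the Ctrl libraries. Its level in cKO was 0.234 times that in Ctrl, a log2 fold change of -2.09 ± 0.04 (SE), so the libraries match their labels. The removed exons are not stated, and reads from the others still count as Nus1. Reads in the rows of the table came to 10786150 to 10983767 in the cKO libraries and 11002519 to 11033144 in the Ctrl libraries. These rows hold 59.4% to 60.3% of all TPM, and the total depth of the libraries is not known. All 4656 rows have an authors' q-value under 0.05, out of 15835 genes that those q-values imply were tested. Genes without a row are therefore unknown here, and a gene with a row had already been called by the authors.

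All 4 genes were higher in cKO than in Ctrl, and for each of them every cKO library lay above every Ctrl library. edgeR's quasi-likelihood test, with Benjamini-Hochberg adjustment over 15835 genes, called the 4 at an adjusted p of 0.05, where it called 96.7% of the 4641 rows tested with 46.4% of them higher and 50.2% of them lower in cKO. By the authors' q-values, 29.4% of all 15835 genes were called, 13.7% of them all as higher. The libraries of the 2 groups did not overlap in 96.7% of tested rows, and 46.4% did so with cKO above Ctrl. Being called or not overlapping is thus the background for rows of this table, and the sizes of the changes are described here. In size the 4 genes were far apart: Soat2 changed 6.71-fold, Npc1 and Npc2 1.40-fold each, and Soat1 1.13-fold. In a bulk sample, more cells that express a gene and more RNA per cell cannot be told apart.

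**Figure D1:**
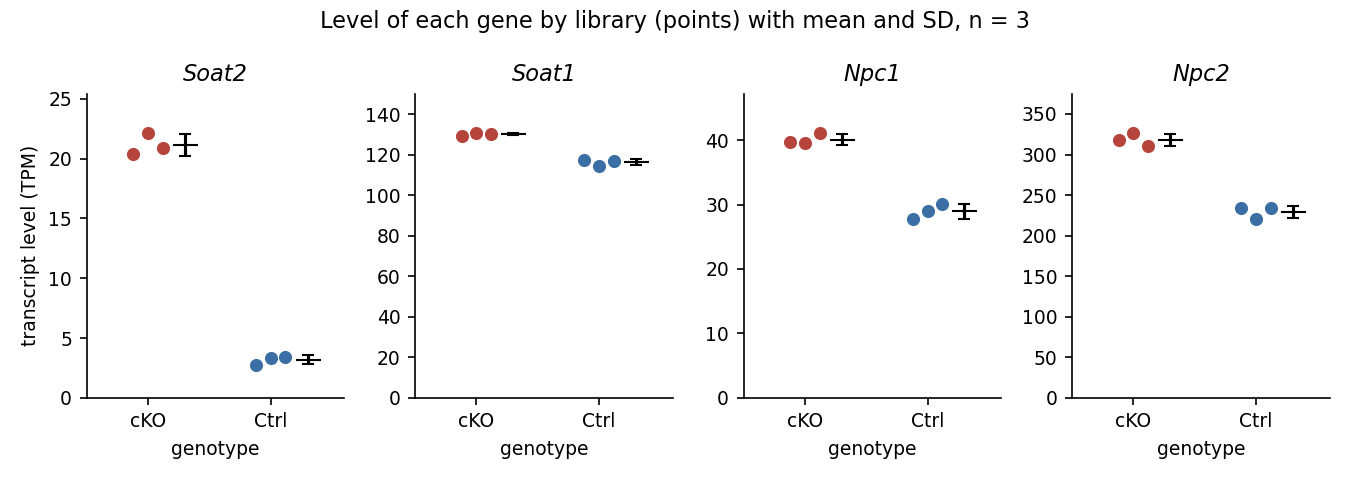
Transcript level in TPM (vertical axes, each starting at 0) of Soat2, Soat1, Npc1 and Npc2 in 3 cKO libraries (red) and 3 Ctrl libraries (blue), with the mean and SD in black. Soat2 stood near 21.1 TPM in cKO and 3.17 TPM in Ctrl, and the other genes differed by smaller folds with no overlap of the groups.

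Soat2, the acyltransferase of intestine and liver, had the largest change of the 4. It lies on chromosome 15:102058853-102071871, plus strand (mm39, ENSMUSG00000023045). Its level was 20.36, 22.12 and 20.85 TPM in the cKO libraries, against 2.73, 3.36 and 3.42 TPM in the Ctrl libraries. The lowest cKO library was several times above the highest Ctrl library, and the libraries within each group lay close together. These values rest on 409, 448 and 425 estimated reads in cKO and on 55, 68 and 69 in Ctrl, so the Ctrl level was low but above the counting floor in every library. The means were 21.1 ± 0.908 TPM in cKO and 3.17 ± 0.382 TPM in Ctrl (SD, n = 3 each). The log2 fold change was 2.75 ± 0.10 (SE) with an adjusted p of 7.7e-24 by edgeR, a 6.71-fold difference with a 95% interval of 5.88 to 7.65 from 1.96 standard errors on each side. The authors' deposited table gives a log2 fold change of 2.71 for the gene. Of the 4641 rows tested, 15 (0.323%), Soat2 included, had a log2 fold change as large or larger. In level, Soat2 stood above 31.2% of the rows in cKO and above 6.96% of them in Ctrl.

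Soat1, the acyltransferase that macrophages mainly use, changed least. It lies on chromosome 1:156255678-156301898 (mm39, ENSMUSG00000026600), and the table lists it on the plus strand while the GENCODE vM21 annotation places it on the minus strand. Its level was 129.49, 130.66 and 130.25 TPM in the cKO libraries, against 117.61, 114.53 and 116.98 TPM in the Ctrl libraries. The groups did not overlap, although the gap between them was small beside the level itself. The means were 130 ± 0.594 TPM in cKO and 116 ± 1.63 TPM in Ctrl (SD, n = 3 each), from 5776 to 6618 estimated reads per library. The log2 fold change was 0.18 ± 0.02 (SE), a 1.13-fold difference with a 95% interval of 1.10 to 1.16 and an adjusted p of 4.9e-09 by edgeR; the authors' deposited table gives 0.14. Among the rows called higher in cKO, 91.8% had a log2 fold change at least as large as that of Soat1, whose change was thus among the smaller ones of those rows. Its level was high in both groups, above 82.8% of the rows in cKO and above 79.7% of them in Ctrl.

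Because TPM is scaled by length, the 2 paralogs can be set beside each other within a library. No 50-base stretch of their transcripts is shared between them, and 0.841% of those of Soat1 and 0.787% of those of Soat2 occur in any other gene. Soat2 made up 13.6%, 14.5% and 13.8% of the summed Soat1 and Soat2 TPM in the cKO libraries, against 2.27%, 2.85% and 2.84% in the Ctrl libraries. The share averaged 14.0 ± 0.466% in cKO and 2.65 ± 0.333% in Ctrl (SD, n = 3 each), a difference of 11.3 percentage points. Soat1 thus remained the more abundant transcript of the pair in all 6 libraries. As a log2 ratio of Soat2 over Soat1, the means were -2.62 ± 0.06 in cKO and -5.21 ± 0.19 in Ctrl, a difference of 2.58. An exact two-sided permutation test over libraries gave p = 0.1 for the share and for the ratio, which is the smallest value that 3 against 3 can give. The differences between single cKO and Ctrl libraries ran from 2.42 to 2.87 on the log2 scale, all of 1 sign.

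The summed TPM of both acyltransferases was 149.85, 152.78 and 151.10 in the cKO libraries, against 120.34, 117.89 and 120.40 in the Ctrl libraries. The sum was higher by 31.7 TPM in cKO, with means of 151 ± 1.47 TPM in cKO and 120 ± 1.43 TPM in Ctrl (SD, n = 3 each). Soat2 supplied 17.9 TPM (56.6%) of that difference and Soat1 13.8 TPM (43.4%). In TPM, the modest change of the abundant gene and the large change of the scarce one were thus of similar size. TPM is a relative level within a library and does not count transcripts. The Soat1 part depends on the processing, as its log2 fold change ran from 0.14 to 0.22 across alternatives. An exact permutation test of the sum gave p = 0.1.

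Npc1, the membrane transporter of the lysosome, was higher in cKO by an intermediate amount. It lies on chromosome 18:12322751-12369851, minus strand (mm39, ENSMUSG00000024413). Its level was 39.70, 39.50 and 41.08 TPM in the cKO libraries, against 27.74, 28.98 and 30.08 TPM in the Ctrl libraries. The lowest cKO library lay well above the highest Ctrl library. The means were 40.1 ± 0.860 TPM in cKO and 28.9 ± 1.17 TPM in Ctrl (SD, n = 3 each), from 1518 to 2287 estimated reads per library. The log2 fold change was 0.49 ± 0.03 (SE), a 1.40-fold difference with a 95% interval of 1.34 to 1.47 and an adjusted p of 4.0e-15 by edgeR; the authors' deposited table gives 0.45. As large a log2 fold change or a larger one was found in 15.9% of the rows tested. Npc1 overlaps Rmc1 on the opposite strand, with 511 exonic bases in common in GENCODE vM21, and also the antisense gene Gm15956, with 90. Of the 50-base stretches of its transcripts, 8.95% occur in those genes too. Neither has a row, and the sources used here do not state if the counting used strand, so reads from that overlap cannot be told apart.

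Npc2, the soluble carrier that hands cholesterol to NPC1, changed by the same fold at a much higher level. It lies on chromosome 12:84801333-84819886, minus strand (mm39, ENSMUSG00000021242). Its level was 317.44, 326.32 and 311.03 TPM in the cKO libraries, against 233.64, 220.18 and 233.86 TPM in the Ctrl libraries. All cKO libraries were above all Ctrl libraries, and the spread within a group was small beside the gap. The means were 318 ± 7.68 TPM in cKO and 229 ± 7.84 TPM in Ctrl (SD, n = 3 each), from 7300 to 10769 estimated reads per library. The log2 fold change was 0.49 ± 0.02 (SE), a 1.40-fold difference with a 95% interval of 1.36 to 1.44 and an adjusted p of 5.7e-21 by edgeR; the authors' deposited table gives 0.45. A change this large or larger was found in 15.8% of the rows tested. Npc2 was among the more abundant rows, above 93.6% of them in cKO and above 90.0% in Ctrl. None of the 50-base stretches of its transcripts occurs in another gene, and no gene overlaps it.

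The proportion of the 2 partners did not differ beyond the spread between libraries. Npc2 TPM was 7.57 to 8.26 times Npc1 TPM in the cKO libraries, against 7.60 to 8.42 times in the Ctrl libraries. The ranges of the groups overlapped over most of their length. As a log2 ratio the means were 2.99 ± 0.06 in cKO and 2.99 ± 0.08 in Ctrl (SD, n = 3 each), with an exact permutation p of 1. Differences between single cKO and Ctrl libraries ran from -0.15 to 0.12 on the log2 scale, so a difference in proportion beyond that range was not seen between any pair of libraries. The order of levels was Npc2, Soat1, Npc1 and Soat2 from high to low in each of the 6 libraries, and the values of neighbours in that order did not overlap in either group.

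**Figure D2:**
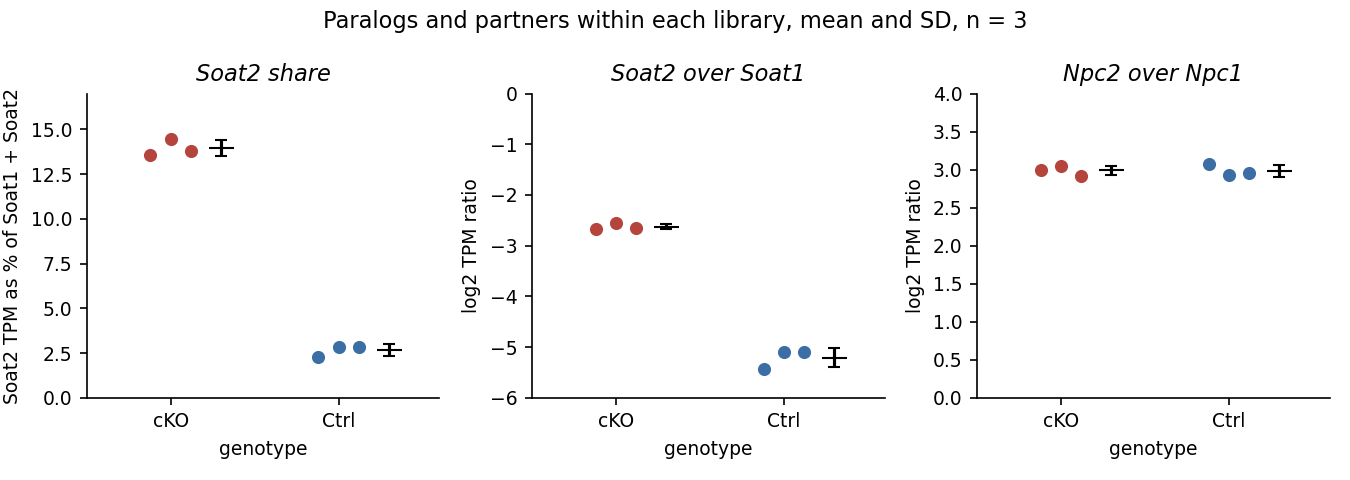
Soat2 TPM as a percent of Soat1 plus Soat2 TPM (left), the log2 TPM ratio of Soat2 over Soat1 (middle) and the log2 TPM ratio of Npc2 over Npc1 (right) in 3 cKO libraries (red) and 3 Ctrl libraries (blue), with the mean and SD in black. The acyltransferase share averaged 14.0% in cKO and 2.65% in Ctrl, while the Npc2 over Npc1 ratio averaged 2.99 in both groups.

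**Figure D3:**
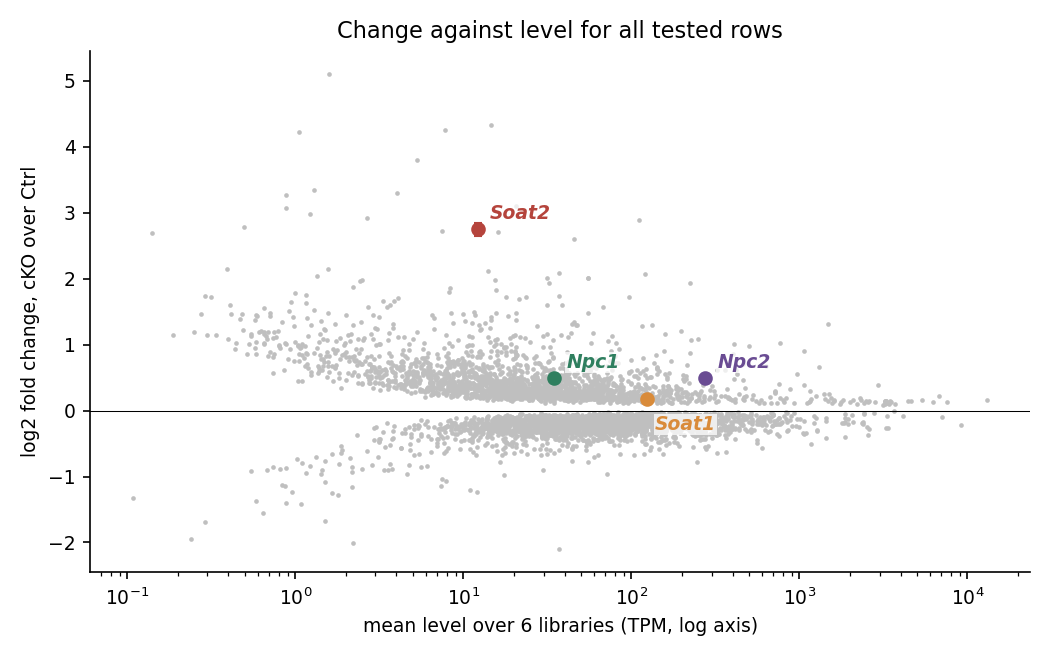
Log2 fold change of cKO over Ctrl against the mean level over 6 libraries (TPM, log axis) for the tested rows, in grey, with the 4 genes in colour and bars for ± SE. Soat2, at 2.75, stands apart from the bulk of the rows, Npc1 and Npc2 share a change of 0.49 at different levels, and Soat1, at 0.18, lies at the inner edge of the rows with positive values; the gap around 0 arises because the table holds called genes.

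The sequence that separates Npc2 from its nearest neighbour is shown because the pair is divergent, shares one upstream interval, and both genes have a row. Isca2, which takes part in building mitochondrial iron-sulfur clusters, is read from the opposite strand and starts 121 bases from Npc2 in the coordinates of the table. Its level was 86.27, 94.40 and 88.47 TPM in the cKO libraries, against 75.49, 74.29 and 69.01 TPM in the Ctrl libraries, with no overlap. Its log2 fold change was 0.31 ± 0.06 (SE) with an adjusted p of 4.1e-05 by edgeR, compared with 0.49 ± 0.02 for Npc2. In the RefSeq promoter sequence on the build GRCm38.p6, the part of the interval outside annotated exons of either gene is 98 bases long, at chr12:84773153-84773250. It is printed 5′ to 3′ on the minus strand, that is, in the direction of Npc2, with the motifs that were found in capitals.
Npc2 upstream interval: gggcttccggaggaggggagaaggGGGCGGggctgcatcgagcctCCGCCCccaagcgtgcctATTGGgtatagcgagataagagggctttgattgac
The capitals mark a GC box (GGGCGG) on each strand and a CCAAT box read on the opposite strand (ATTGG). The interval is 63.3% G and C. In windows of the same length from 32851 mouse promoters, searched on both strands, a GC box was present in 20.4% and a CCAAT box in 18.4%. The E-box CACGTG, the sterol regulatory element core TCACCCCAC and the ATF4 composite site TGATGNAA had no match in these letters. They were present in 2.65%, 0.180% and 1.54% of such windows, so a window this short seldom holds any of them. A match is a string of letters and does not show that a factor binds there.

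Around Soat2 the other rows moved the same way. Of 8 protein-coding genes annotated within 100000 bases of it, 7 have a row (Csad does not), and all 7 were higher in cKO by edgeR, where 46.4% of tested rows were. The nearest, Igfbp6, which encodes a binding protein of insulin-like growth factors, ends 906 bases before Soat2 on the same strand. Igfbp6 stood at 3.30, 3.87 and 4.45 TPM in the cKO libraries, against 0.93, 1.12 and 0.93 TPM in the Ctrl libraries, from 10 to 48 estimated reads per library. Its log2 fold change was 1.96 ± 0.28 (SE) with an adjusted p of 2.6e-07. The integrin subunit gene Itgb7, 52558 bases away, averaged 77.6 ± 0.975 TPM in cKO and 45.4 ± 1.57 TPM in Ctrl, a log2 fold change of 0.79 ± 0.03. The remaining log2 fold changes ran from 0.19 for the translation factor gene Eif4b to 1.08 ± 0.23 for the focal adhesion gene Tns2. Between them were 0.32 for Spryd3 and for Zfp740 and 0.65 for the retinoic acid receptor gene Rarg. Tns2 was near the detection limit, at 0.913 ± 0.067 TPM in cKO and 0.440 ± 0.101 TPM in Ctrl, from 17 to 49 estimated reads per library. Whether neighbouring position plays a part in these changes was not tested.

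The other members had fewer neighbours with a row. Within 100000 bases of Npc2, Isca2 and Ltbp2 have one of 3 protein-coding genes, and Ltbp2, a matrix protein gene near the detection limit, averaged 0.600 ± 0.066 TPM in cKO and 0.290 ± 0.053 TPM in Ctrl with a log2 fold change of 1.03 ± 0.24. Near Npc1, only Riok3, a kinase gene, has a row of 5 protein-coding genes, and its log2 fold change was 0.22 ± 0.04. Near Soat1, 0 of 5 have one.

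**Figure D4:**
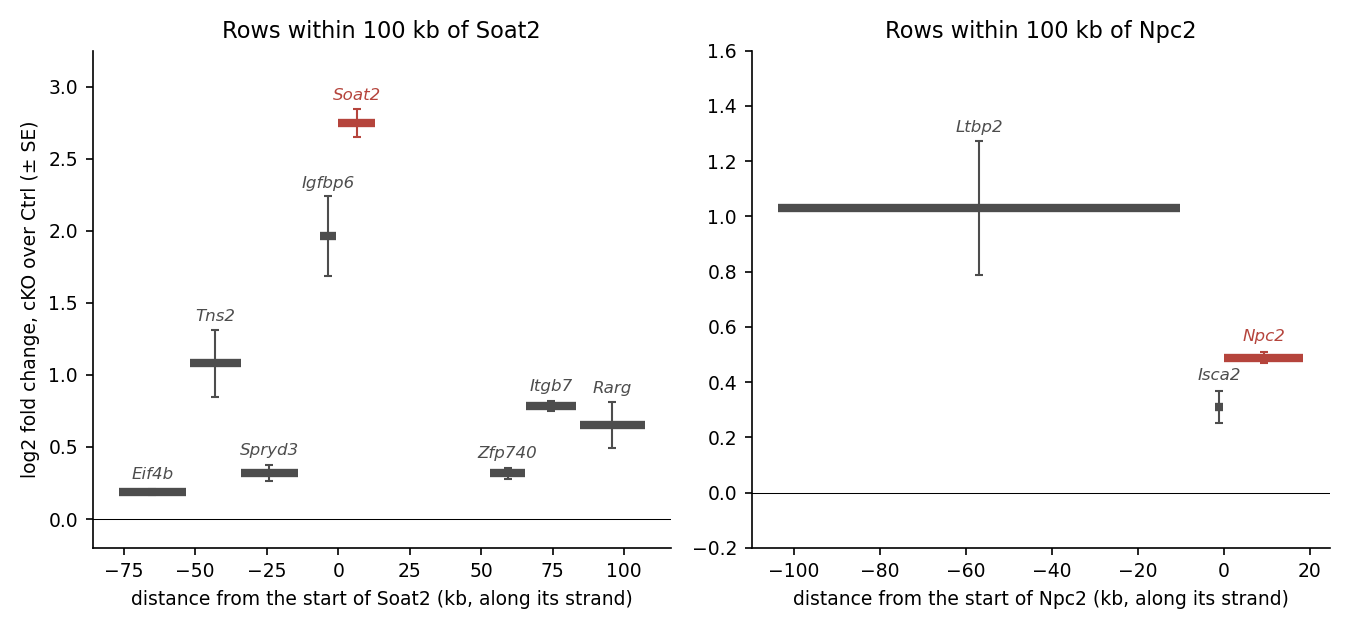
Log2 fold change of cKO over Ctrl (vertical axis, bars ± SE) for the rows within 100 kb of Soat2 (left) and of Npc2 (right), each drawn as a bar over its gene body at its distance from the start of the named gene in kb. Igfbp6, just before Soat2, had the largest change among the neighbours of Soat2 at 1.96, and Isca2, next to the start of Npc2, had 0.31.

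Among genes that act with Npc1 and Npc2 in carrying sterols out of lysosomes and endosomes, those with a row were mostly higher in cKO. Of 31 listed genes other than the pair, 15 have a row, 12 of them higher and 3 lower by edgeR. Of all tested rows, 46.4% were higher and 50.2% lower. The lower calls of the list numbered 2 under RLE, upper-quartile and DESeq2 scaling. The median log2 fold change was 0.29, beside -0.08 over all rows tested. Lamp2, a lysosomal membrane protein that binds cholesterol, averaged 260 ± 2.41 TPM in cKO and 219 ± 8.22 TPM in Ctrl, a log2 fold change of 0.29 ± 0.02. Osbpl2, an oxysterol-binding transfer protein, averaged 39.6 ± 0.896 TPM in cKO and 26.2 ± 1.33 TPM in Ctrl, a log2 fold change of 0.61 ± 0.04. Tmem97, the sigma-2 receptor, which binds NPC1 and in human cells lowers its amount, went the other way with 139 ± 2.37 TPM in cKO and 198 ± 3.07 TPM in Ctrl, a log2 fold change of -0.49 ± 0.03. Chosen after their values were seen, the acid sphingomyelinase gene Smpd1 had a log2 fold change of 0.49 ± 0.10, and the sterol carriers Stard5 and Stard4 had 0.50 ± 0.08 and -0.36 ± 0.05. Those carriers belong to 1 family and differed in sign.

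On the side of ester breakdown almost nothing can be said. Of 10 genes listed for ester hydrolysis and for esterification outside cells, 1 has a row, and Lipa and Nceh1, the lysosomal and cytosolic ester hydrolases of macrophages, have none. The 1 row is Pltp, which transfers phospholipids between lipoproteins, with 4.19 ± 0.636 TPM in cKO and 6.70 ± 1.10 TPM in Ctrl and a log2 fold change of -0.66 ± 0.14. Genes of lipid droplets, where the esters are stored, were split. Of 32 listed, 9 have a row, 4 rose, 4 fell and 1 was not called, with a median of -0.05. Among all tested rows, 46.4% were higher and 50.2% lower. Plin3, a droplet coat protein, averaged 101 ± 0.899 TPM in cKO and 73.9 ± 1.55 TPM in Ctrl, a log2 fold change of 0.46 ± 0.03. Plin2, the main droplet coat protein of macrophages, averaged 268 ± 4.06 TPM in cKO and 239 ± 12.3 TPM in Ctrl, a log2 fold change of 0.18 ± 0.03, the size of that of Soat1. Gpat3, which starts glycerolipid synthesis, had the largest change of the list at 1.12 ± 0.12, while the acyl-CoA synthetase genes Acsl3 and Acsl5 had -0.26 ± 0.03 and -0.12 ± 0.02.

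Genes of sterol uptake and synthesis with a row were mostly lower in cKO, where 50.2% of all tested rows were lower and 46.4% higher. A gene with a row had been called by the authors, so direction rather than the call is described. Of 17 uptake genes, 9 have a row, 0 of them higher and 7 lower (5 to 9 across scalings), at a median of -0.15 on the log2 scale. The scavenger receptor genes Cd36, Msr1, Stab1 and Cd68 had -0.46, -0.51, -0.21 and -0.15. Of 24 genes of sterol and isoprenoid synthesis, 19 have a row and all 19 fell (14 to 19 across scalings), with a median of -0.41. The largest decrease among those named was in Idi1, which isomerises the isoprenoid building block, at -0.96 ± 0.03; Cyp51, Msmo1, Fdps and Sqle had -0.68, -0.51, -0.43 and -0.41. Acat2, chosen after its values were seen, is the thiolase gene whose symbol is also an old name of SOAT2; it averaged 22.1 ± 1.12 TPM in cKO and 35.8 ± 1.63 TPM in Ctrl, the opposite direction to Soat2.

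Genes that sense sterols and set the SREBP transcription factors went both ways, with 10 of 17 listed having a row, 3 higher and 7 lower, and a median of -0.24. Nfe2l1, an endoplasmic reticulum factor that binds cholesterol, averaged 67.0 ± 1.68 TPM in cKO and 40.3 ± 1.39 TPM in Ctrl, a log2 fold change of 0.65 ± 0.03. Insig1, which retains SREBP in the reticulum, and Srebf2, which encodes SREBP2, had -0.66 ± 0.05 and -0.29 ± 0.03. Among 20 genes of sterol efflux and oxysterol sensing, 7 have a row, 5 rose and 2 fell, with a median of 0.26. The 2 lower calls were lost under RLE, upper-quartile and DESeq2 scaling. The exporters Abcg1 and Abca7 had 0.32 ± 0.04 and 0.26 ± 0.06, and the apolipoprotein clusterin (Clu) had 0.49 ± 0.04. The oxysterol receptor Nr1h2 had 0.39 ± 0.07 and the sterol hydroxylase Cyp27a1 0.25 ± 0.05. Over the 167 genes of all 10 lists, protein families included, other than the 4 members, 72 have a tested row. Of those, 26 were higher and 43 lower, and the median was -0.12. As the background for each of these lists, 46.4% of all rows tested were higher and 50.2% lower, with a median of -0.08. Fewer of the lower calls were made by DESeq2, with 14 in the synthesis list, 5 in the uptake list and 0 in the efflux list.

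**Figure D5:**
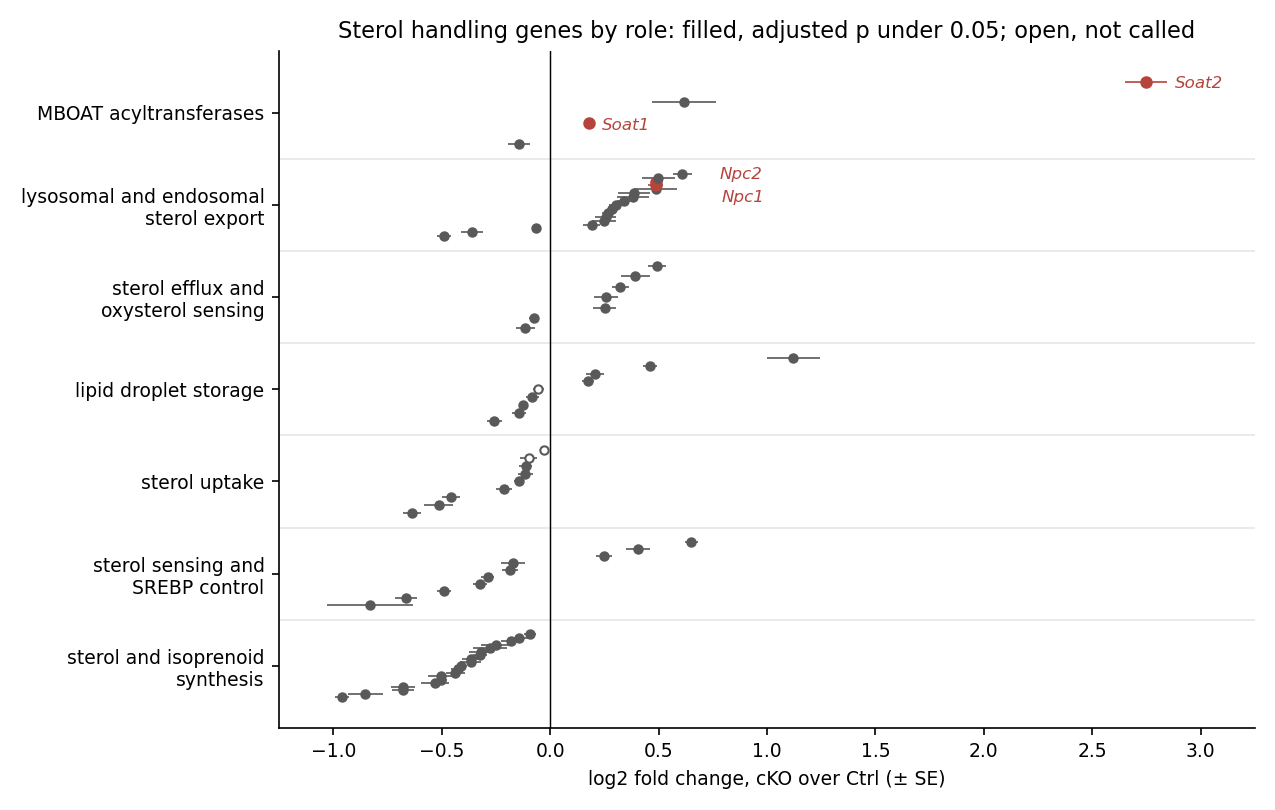
Log2 fold change of cKO over Ctrl (horizontal axis, bars ± SE) of the tested genes in 7 lists of sterol handling, with filled points for an adjusted p under 0.05, open points for genes not called, and Soat1, Soat2, Npc1 and Npc2 in red. Synthesis genes all lie left of 0, export partners mostly right of it, and Soat2 lies far from every other gene shown.

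Within their protein families the members were compared by the same counts. SOAT1 and SOAT2 belong to the membrane-bound O-acyltransferases, and of the other 9 genes of that family 2 have a row. Hhat, which puts palmitate on Hedgehog proteins, averaged 3.98 ± 0.821 TPM in cKO and 2.54 ± 0.450 TPM in Ctrl with a log2 fold change of 0.62 ± 0.15, and the lysophospholipid acyltransferase gene Mboat1 had -0.14 ± 0.05. The call on Mboat1 was lost under RLE, upper-quartile and DESeq2 scaling and without cKO replicate 3 or Ctrl replicate 1. NPC1 carries a sterol-sensing domain, as does the product of Dhcr7, the last enzyme of cholesterol synthesis, which had -0.50 ± 0.06. Of the 12 other listed genes of that family 2 have a row, and both were lower in cKO, as were 50.2% of all tested rows. NPC2 shares its lipid-binding ML domain with the ganglioside activator Gm2a and with Ly86, a partner of a Toll-like receptor homologue. Gm2a averaged 30.9 ± 0.512 TPM in cKO and 26.7 ± 1.23 TPM in Ctrl, and Ly86 averaged 45.2 ± 3.33 TPM in cKO and 64.1 ± 3.41 TPM in Ctrl. Membership of a family was thus not tied to 1 direction among the genes with a row.

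Rows with the most similar profile were found by the Euclidean distance between centred log2(TPM + 0.1) values over the 6 libraries, among 4559 rows with a mean of at least 1 TPM. Nearest to Soat2 were the pseudokinase gene Trib3 at 0.205, the angiopoietin-like gene Angptl6 at 0.359 and the interferon-induced exonuclease gene Isg20 at 0.426, against a median distance of 3.44 over all rows. Trib3 stood at 76.21, 82.70 and 74.72 TPM in the cKO libraries, against 12.04, 13.01 and 13.81 TPM in the Ctrl libraries. Nearest to Soat1 were Ptpn23 at 0.0209, Cttnbp2nl at 0.0213 and the ribosomal protein gene Rpsa at 0.0223, against a median of 0.421. Nearest to Npc1 were Ndst1 at 0.0383 and, among the 3 nearest, the mitochondrial folate enzyme gene Mthfd2 at 0.0694, and nearest to Npc2 were Arhgap12 at 0.0537, the sialyltransferase gene St6gal1 at 0.0585 and Plxnc1 at 0.0601. The distance between Npc1 and Npc2 was 0.142, against medians of 0.729 and 0.731, whereas Soat1 and Soat2 lay 3.13 apart. The distance reflects mainly the size of the difference between the groups, and the libraries are shared by all rows.

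The cell type was checked against marker lists, of which few genes have a row. Of 15 microglial markers 5 do. Csf1r averaged 121 TPM in cKO and 130 TPM in Ctrl, and Trem2 averaged 193 TPM in cKO and 211 TPM in Ctrl. Both calls were lost under RLE, upper-quartile and DESeq2 scaling, that on Trem2 also without cKO replicate 3 or Ctrl replicate 1. Cx3cr1 averaged 11.0 TPM in cKO and 16.0 TPM in Ctrl, Fcrls 9.11 TPM in cKO and 12.6 TPM in Ctrl, and Itgam 101 TPM in cKO and 61.6 TPM in Ctrl. By edgeR 4 of these 5 were lower and 1, Itgam, was higher, where 50.2% of all tested rows were lower and 46.4% higher. Their summed level was 427 to 440 TPM in the cKO libraries and 425 to 437 TPM in the Ctrl libraries. In that sum the rise of Itgam offsets the decrease of the other 4. P2ry12, Tmem119 and Sall1 are among the microglial markers with no row. Of the 15 markers of hepatocytes and enterocytes, the cells best known for SOAT2, 0 have a row. Markers of border-associated macrophages have 5 of 11 rows, with a median log2 fold change of -0.84. Mrc1, Ms4a7, Folr2 and Clec12a were lower, at -1.14, -0.90, -0.84 and -0.64, and Siglec1 was higher, at 0.96. The summed level of these markers was 75.6 to 81.2 TPM in cKO and 79.1 to 99.5 TPM in Ctrl. Siglec1 averaged 39.4 TPM in cKO and 20.4 TPM in Ctrl, so in that sum its rise offsets part of the decrease of the other 4. Of 12 markers of monocytes and neutrophils 3 have a row, and 1 of the 2 tested was higher and 1 lower in cKO. Ly6c2, not tested, stood at 0.55 to 0.71 TPM in cKO and was listed at 0 in Ctrl, and S100a4 was lower in cKO. Their summed level was 2216 to 2467 TPM in cKO and 2760 to 2910 TPM in Ctrl. Of 10 markers each, astrocytes, oligodendrocytes and endothelial or mural cells have 1 row (Aldh1l1 lower, Cnp higher, Pecam1 higher), and neurons have 0. Aldh1l1 and Pecam1 lay near the detection limit. Aldh1l1 stood at 0 to 0.16 TPM in cKO and 0.34 to 0.42 TPM in Ctrl, and Pecam1 at 0.51 to 0.78 TPM in cKO and 0.15 to 0.42 TPM in Ctrl. Without cKO replicate 3 the Aldh1l1 log2 fold change was -1.38 and the call was lost, with an adjusted p of 0.061 by edgeR. The part of a change in cell make-up in the values of the 4 genes was not tested.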

How the data were processed

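Messenger RNA was measured in 6 libraries, whose titles give the genotype. The submitters' processing notes name Bowtie2 2.4.5, DESeq2 1.34.0 and the build mm39, and no read counter was found in the sources used here. The table as deposited holds the authors' estimated counts per gene, which are not normalized, FPKM and TPM values scaled by length and depth, normalized counts (a signal divided by 1 size factor per library), and the authors' log2 fold changes, p-values and q-values, per the file headers. Another 8 columns of the authors' averages were not used. The rows hold 59.4% to 60.3% of all TPM and were selected on the comparison itself, so normalization and spread are those of called genes. Expected counts (11.1% of entries not whole, tolerance 1e-06) were rounded and tested with edgeR 4.0.16 (R 4.3.3, quasi-likelihood, TMM, filterByExpr, 4641 rows kept), with adjustment over 15835 genes and a threshold of 0.05. Ratios and single values used exact two-sided permutation tests. Alternatives used limma 3.58.1, DESeq2 1.42.0, other scalings and filters, and each library left out. Members and lists were chosen with earlier results of these data known. Named are the 4 genes, Nus1, up to 5 called genes per list with the smallest p, the 3 nearest profiles and rows within 100000 bases. Libraries of a group differed beyond sampling noise, with a mean chi-square per gene of 1.31 to 2.18. Statistics were tested on simulated data. For edgeR few of the simulated rows differed between groups, unlike this table of called genes, so its behaviour on such a table was not tested. Sequences and promoter shares came from RefSeq (GRCm38.p6; 2 of the 4 genes matched), and overlaps and transcripts from GENCODE vM21. Python 3.11.15, NumPy 2.4.6, pandas 2.3.3, SciPy 1.17.1 and matplotlib 3.10.9 were used. A few genes that the naming rule takes are not reported here.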

Additional observations from a re-analysis of the deposited data

How the results depend on the processing

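Each of the 4 genes was higher in cKO and called in 20 of 20 alternatives. Rows called higher numbered 2121 to 2168 across those alternatives, against 2155 in the main fit. Keeping the call is thus close to the background for rows higher in cKO, and the sizes are described. The log2 fold changes were 2.28 to 2.80 for Soat2, 0.14 to 0.22 for Soat1, 0.44 to 0.53 for Npc1 and 0.45 to 0.54 for Npc2. The lowest value of Soat2 came from limma on log2(FPKM + 1), which shrinks low levels. Leaving out 1 library gave 2.65 to 2.80, 0.17 to 0.18, 0.45 to 0.51 and 0.47 to 0.50 for the genes in that order. The Npc2 over Npc1 log2 TPM ratio changed sign when 1 library was left out, with differences of -0.028 to 0.047. Deviations of same-numbered libraries had correlations of 0.059, -0.023 and -0.053, within the range of -0.074 to 0.108 for unlike-numbered ones. No pairing by number was seen, though so few libraries cannot exclude one. With a replicate block the log2 fold changes were 2.75 for Soat2, 0.18 for Soat1, 0.49 for Npc1 and 0.49 for Npc2, and 2159 rows were higher and 2304 lower. DESeq2 called 2155 rows higher and 1509 lower (58.8% of calls higher, against 48.0% with edgeR); the cause was not tested. No scaling moved the median of all rows by more than 0.05. At least 55 estimated reads per library lie behind each value of the 4 genes. A table of called genes limits every count of list members, since genes without a row are unknown.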
